A study of Homo sapiens with 12 samples.

Results

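The comparison of Huh7 cells given human erythroferrone (ERFE) with untreated Huh7 cells rests on 8 of the 12 arrays of the study, chosen by their titles. The 4 human ERFE arrays held RNA of cells kept for 24 h with recombinant human ERFE at 10 µg/ml, and the 4 untreated arrays held RNA of cells kept for the same time without it. The other 4 arrays held cells given recombinant mouse ERFE at the same dose and time, and they entered the normalization, the detection filter and the fit, and are compared directly with the human ERFE arrays in 1 passage. All cells were Huh7, an established human hepatoma line, so that 1 line stands for hepatocytes here. No group was labelled as given vehicle alone or a protein other than ERFE. Each title opens with a code of a letter and a number whose meaning is not given. Untreated arrays 1 to 4 were coded A1, A3, B3 and C4. Human ERFE arrays 1 to 4 were coded C1, A2, B2 and C3. The code number was thus partly confounded with the group. The labels do not say whether arrays of 1 group stand for separate cultures, and p-values here reflect only how much these arrays vary, possibly for technical reasons.

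ERFE is a secreted hormone made by red cell precursors when red cell production is stimulated. It binds bone morphogenetic proteins (BMPs), which otherwise act on hepatocyte receptors that phosphorylate SMAD1, SMAD5 and SMAD8, and these switch on HAMP, the gene of the iron hormone hepcidin, together with a set of general BMP target genes. The question here is which pathways and classes of genes, in and beyond that axis, differed in cells given the human protein.

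The 8 arrays detected between 36.2% and 38.1% of 47323 probes, and 10891 named genes were tested over the whole series. Of 12 hepatocyte markers, 11 were tested and all 11 were detected on every array, ALB among them with normalised log2 signals from 14.27 to 14.52. Differences between arrays of 1 group had an SD of 0.259 to 0.375 (log2). Markers of other cells were partly present. The 9 tested MHC class II genes, which antigen-presenting cells use to display peptides, averaged 8.43, 8.79, 8.08 and 5.89 on untreated arrays 1 to 4, and 7.84, 6.40, 7.62 and 6.43 on human ERFE arrays 1 to 4. They were thus high (7.616 or above) on 3 of 4 untreated and 2 of 4 human ERFE arrays and at 6.626 or below on the others. Their part in the results was tested only through the fits given below. Of 14 erythroid markers 0 were tested and of 10 endothelial markers 1 was. The macrophage list (7 of 15 tested) averaged 7.63 to 8.30 on untreated and 7.74 to 7.92 on human ERFE arrays. Of its members LYZ, CD68, CD14 and AIF1 were detected on all 8 arrays. TYROBP was detected on 3 untreated and 2 human ERFE arrays, FCGR3A on 2 and 1, and MARCO on 1 and 0. In a culture measured in bulk, fewer cells of a type and less RNA per cell cannot be told apart.

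Few genes were called between human ERFE and untreated cells, and most classes of genes had a median difference near 0. Limma called 27 of 10891 genes at an adjusted p of 0.05 (0.248%), 12 of them higher (0.110%) and 15 lower (0.138%). Of all genes, 87.5% differed by less than 0.25 on the log2 scale, 98.4% by less than 0.5, and the median difference was 0.01. Of the 3631 dimmest genes 3.03% differed by more than 0.5, against 0.248% of the 3630 brightest, and both held called genes. The smallest difference called was 0.47, and the median SE of a gene was 0.12. Simulated data had 15840 genes and noise drawn independently for each probe, so their rates need not hold here. In them 40.2% of 1.5-fold and 62.0% of 2-fold changes were called. A gene without a call is therefore not shown to be unchanged. The signals of the 2 groups did not overlap at all for 435 genes (3.99%), with human ERFE above for 245 (2.25%) and below for 190 (1.74%). At an unadjusted p under 0.05 there were 760 genes (6.98%), 439 higher (4.03%) and 321 lower (2.95%), where 544.55 would be reached by chance. With median centring of each array in place of quantile normalization, 1 gene was called higher and 5 lower. Without untreated array 4 the counts were 37 higher and 15 lower, and without untreated array 2 they were 3 and 8. With a covariate for MHC class II they were 6 and 11. Without the 6 arrays of the study with high MHC class II transcripts, which leaves 1 untreated array, 0 genes were called by limma and 416 had an unadjusted p under 0.05. All 27 genes kept their direction in these fits. Where arrays were only left out this was fixed in advance, since the 2 groups did not overlap for any of the 27. Of these genes, 11 kept their call whichever of the 8 arrays was left out.

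**Figure D1:**
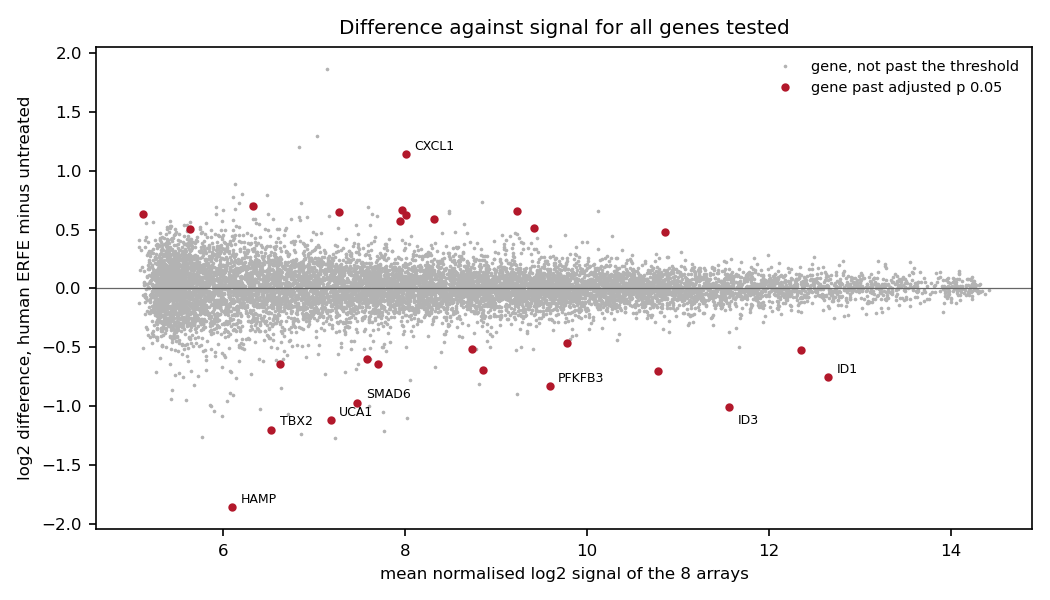
Log2 difference between human ERFE and untreated cells (y axis) against the mean normalised log2 signal of the 8 arrays (x axis) for the 10891 genes tested, red where the adjusted p was under 0.05. Called genes lie between signals near 5 and near 13, HAMP is the lowest point, and genes of high signal scatter less.

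The 12 called genes that rose and the 15 that fell each had all 4 human ERFE arrays on 1 side of all 4 untreated arrays, as their values array by array show. When the 8 arrays were left out in turn, CXCL1, CXCL6, LFNG, HAMP, ID1, ID3, SMAD6, TBX2, UCA1, PFKFB3 and SLC29A3 kept their call each time. CDX2 kept it in 6 of 8 such fits, TFF3 and GPATCH1 in 5, ID2 in 4, S100P in 3, and CLRN3, NFKBIZ, FAM174B and MTURN in 2. TCIM, NUP62CL, SH3TC1, TENT5C, CADM4 and LINC01451 kept it in 1 fit and NR0B2 in 0. The highest adjusted p that a called gene reached in these fits was 0.185, without untreated array 2. Each gene kept its direction, which leaving out arrays could not change, as the 2 groups did not overlap. Under other alternatives some genes that kept their call each time lost it. CXCL6, ID1 and SLC29A3 lost it both with median centring and with the title code number as a block. ID3, SMAD6 and TBX2 lost it with that block, and LFNG and PFKFB3 with median centring and with the mean of a gene's probes. CXCL1, HAMP and UCA1 kept it in each of these settings.

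**Figure D2:**
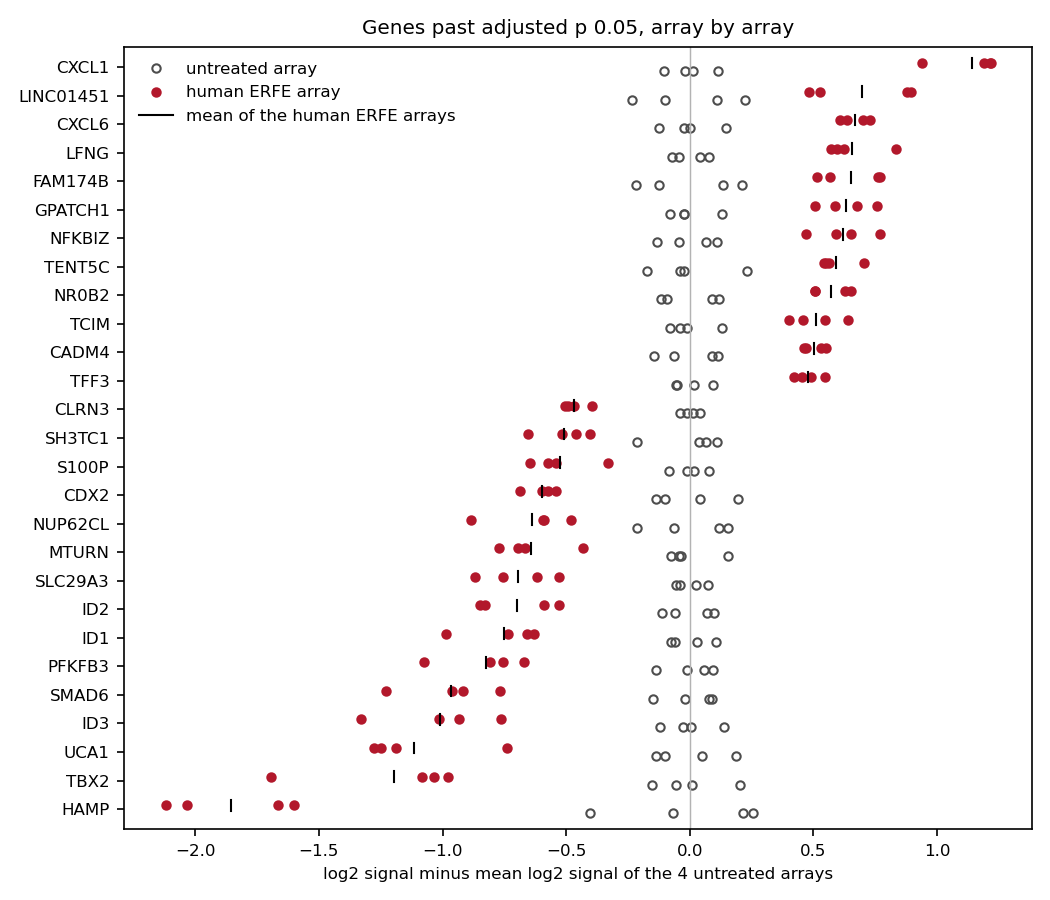
Normalised log2 signal of the 27 called genes on each untreated array (open circles) and each human ERFE array (filled circles), minus the mean of the 4 untreated arrays (x axis). Black bars give the mean of the human ERFE arrays, from -1.85 for HAMP to 1.14 for CXCL1.

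Genes were also read as 78 lists of pathways, complexes and gene classes, of which 77 had tested members. They held 2348 of the genes (21.6%) and 20 of the 27 called ones. A list was described by how many members were called, how many had no overlap between groups, and its median, beside the same figures over all genes (0.248%, 3.99% and 0.01). All lists were written with earlier results of these data known, so no count or share from them is independent evidence. Called genes sat in 17 lists and 60 held none. Of 70 lists with at least 5 tested members, markers of other cells left out, 69 had a median within 0.15 of 0, a bound chosen after the values were seen, and the BMP targets were the exception. Without untreated array 4 the Notch (0.23) and interferon (-0.24) medians also passed that bound. The interferon median passed it too with the mean of a gene's probes (-0.25) and with all probes as units (-0.16). It did so as well with array weights (-0.16), with the title code number as a block (-0.16) and without human ERFE array 1 (-0.18). Under other alternatives so did the median of coagulation (0.19, title code number as a block). With median centring the median of BMP ligands and antagonists passed it too (0.18), but that of all genes was then 0.08. Medians past the bound were also found for chemokines and cytokines (0.22, without the 6 arrays with high MHC class II transcripts) and extracellular matrix (up to 0.17). Members named below with an unadjusted p above 0.05 were picked for their known role, after their values were seen.

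**Figure D3:**
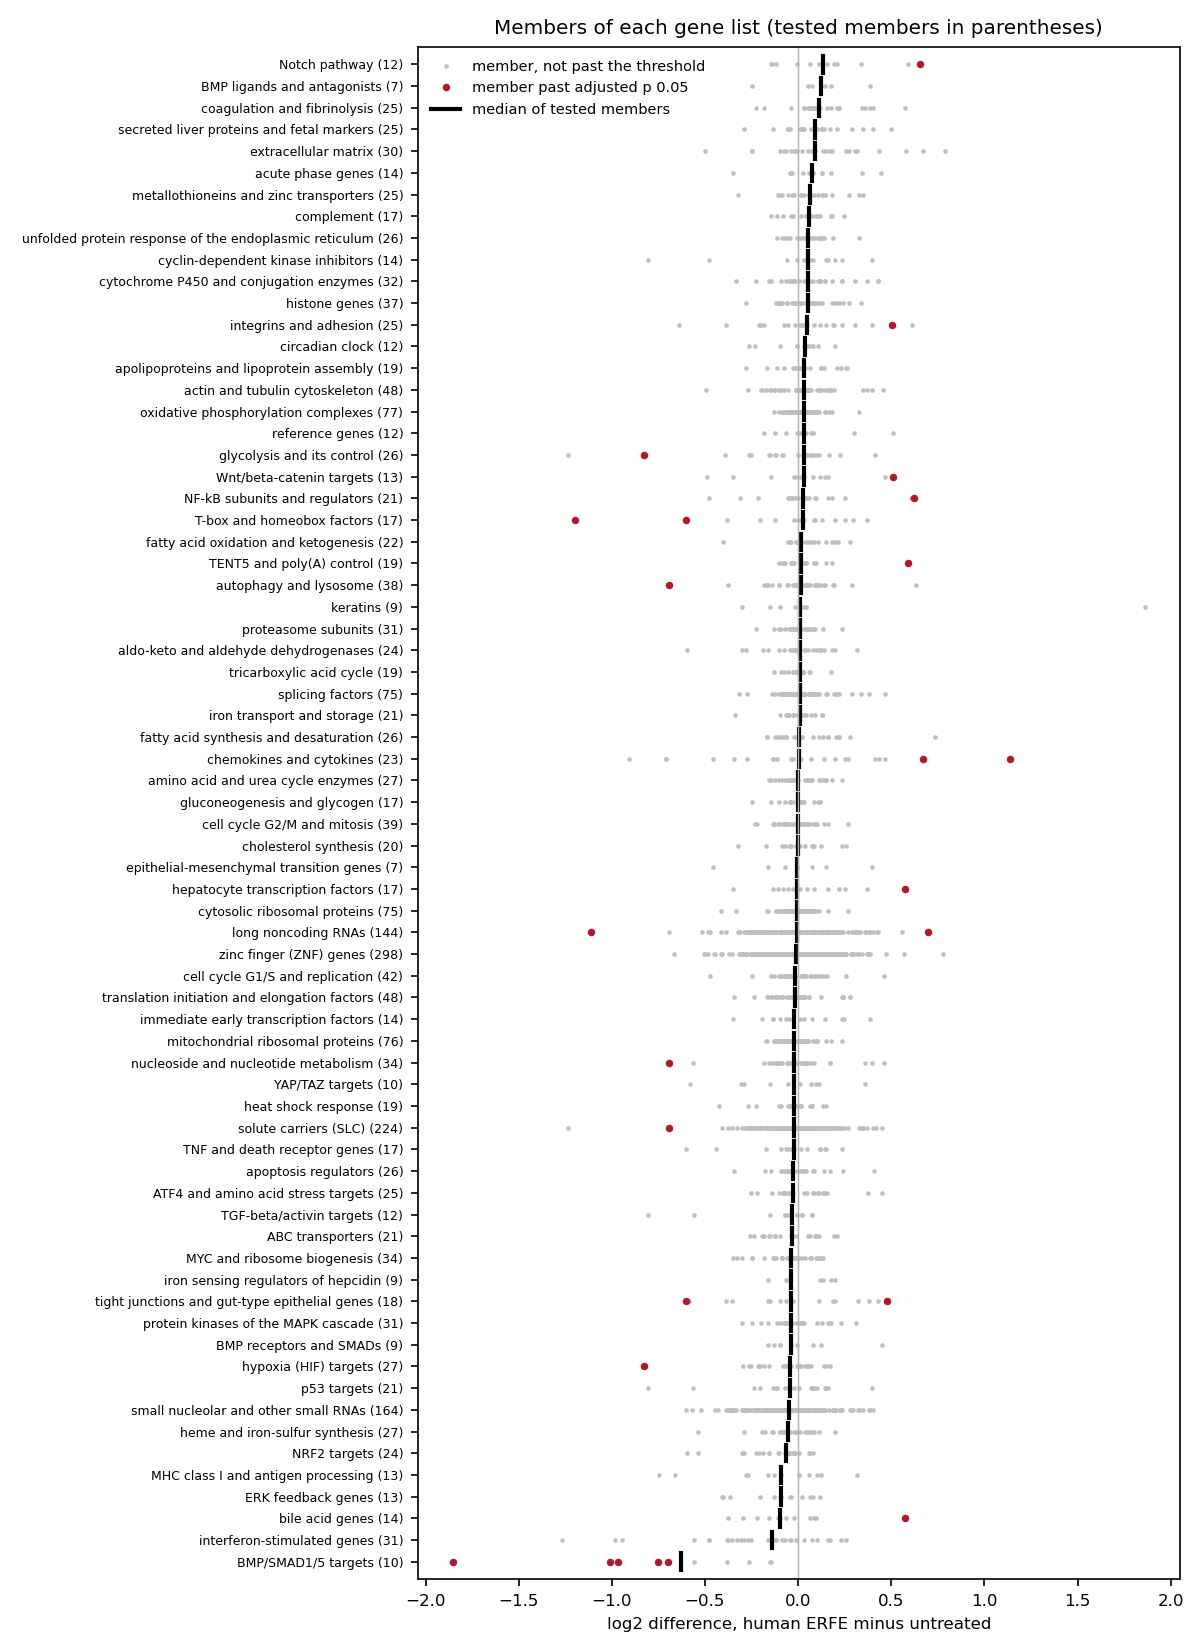
Log2 difference between human ERFE and untreated cells (x axis) for each tested member of 70 lists (rows, number of members in parentheses), with the median as a black bar and called members in red. The BMP targets at the bottom have a median of -0.63, and the other medians lie between -0.14 and 0.13.

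Of the BMP/SMAD1/5 targets, 5 genes fell. Of 17 listed, 10 were tested, these 5 were called lower and 0 higher by limma, 6 had no overlap between groups, and all 10 differences were below 0 with a median of -0.63. HAMP was the 1 of these 5 that stayed called when the title code number served as a block, and ID2 also lost its call with the replicate block, with the title code letter as a block and without untreated array 2 or 3 or human ERFE array 3 or 4. This list was chosen with earlier results on these arrays known, so its direction is no independent evidence. HAMP had signals of 6.96, 7.28, 7.24 and 6.62 on untreated arrays 1 to 4 and of 4.99, 5.36, 5.42 and 4.90 on human ERFE arrays 1 to 4. Every human ERFE array was more than 1 log2 unit below every untreated one. HAMP was detected on 4 of 4 untreated arrays and 1 of 4 human ERFE arrays, which makes its log2 difference (-1.85 ± 0.18, SE, adjusted p = 7.22e-04) dependent on the background step. Over all alternatives it ranged from -1.99 to -0.63, the latter without background correction.

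The promoter of HAMP is printed because the proximal BMP-responsive element known in it carries the letters GGCGCC, which are capitals here and lie 105 to 100 bases before the start. The window is chr19:35282278-35282577 on the plus strand of GRCh38.p14, from RefSeq, 250 bases before to 50 after the start:
HAMP: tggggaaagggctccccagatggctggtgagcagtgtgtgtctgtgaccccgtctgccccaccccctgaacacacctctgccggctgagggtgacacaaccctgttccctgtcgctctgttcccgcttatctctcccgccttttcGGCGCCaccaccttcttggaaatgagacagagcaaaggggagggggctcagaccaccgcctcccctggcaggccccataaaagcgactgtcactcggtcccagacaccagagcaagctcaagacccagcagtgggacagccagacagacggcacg
GGCGCC reads the same on both strands and stood in 19.2% of 35116 such windows. Of called genes with a window, 4 of 13 that fell and 3 of 9 that rose held it, beside 35.7% of 8816 tested genes with any window of theirs counted.

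The inhibitor-of-differentiation genes encode helix-loop-helix proteins without a DNA-binding domain and are direct BMP targets. ID3 had 11.95, 12.07, 12.04 and 12.21 on untreated arrays and 11.30, 11.13, 10.74 and 11.05 on human ERFE arrays 1 to 4. ID1 had 12.95, 12.97, 13.06 and 13.13 on untreated arrays, against 12.37, 12.29, 12.04 and 12.40. For ID2 the values were 11.02, 11.20, 11.07 and 11.23 without ERFE and 10.60, 10.54, 10.30 and 10.28 with it. In all 3 the highest treated array was under the lowest untreated one, and human ERFE array 3 was the lowest for ID3 and ID1. The fitted differences were -1.01, -0.75 and -0.70.

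SMAD6, an inhibitory SMAD that BMP signalling induces, had 7.81, 8.05, 8.03 and 7.94 on untreated arrays and 7.19, 6.998, 6.73 and 7.04 with human ERFE (-0.97, adjusted p = 0.00258). SMAD7, the other inhibitory SMAD, had 7.11, 7.21, 7.57 and 7.39 against 6.87, 6.84, 6.68 and 6.66 and did not pass (-0.56, adjusted p = 0.0864). Its groups did not overlap either, and its second probe gave -0.72. The 4 members whose arrays overlapped were the homeobox gene MSX1 (-0.38), the BMP antagonist GREM1 (-0.26), the decoy receptor BAMBI (-0.15) and the repressor HEY1 (-0.15). GREM1 was detected on 2 of 4 human ERFE arrays.

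Other parts of the BMP and iron axis differed little. Of 9 tested BMP receptors, SMADs and their regulators 0 were called and 0 lacked overlap, with a median of -0.04. The receptors ACVR1, BMPR2 and ACVR2A had -0.01, 0.08 and -0.13, and the signal carriers SMAD5 and SMAD4 had 0.12 and -0.04. SMURF1, a ubiquitin ligase that removes SMADs, had 0.45 (adjusted p = 0.673). Among 7 ligands and antagonists 0 were called, BMP2 had 0.18, and INHBE, an activin subunit of liver, had no overlap (0.38, adjusted p = 0.143). INHBE read 8.63, 8.58, 8.63 and 8.56 on untreated arrays and 8.95, 8.93, 9.09 and 8.96 with human ERFE.

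The 9 iron sensing regulators of hepcidin, which set BMP signalling by iron load, also had 0 calls and 0 members without overlap. TFR2, the transferrin sensor of hepatocytes, had -0.06, HJV, the BMP co-receptor, 0.14, and TMPRSS6, the protease that trims HJV, 0.20. All 9 were within 0.25 of no difference. Of 21 iron transport and storage genes 0 were called and 20 were within 0.25: SLC40A1, the iron exporter, had -0.05, TFRC, the transferrin receptor, -0.06, and FTL, the ferritin light chain, -0.03. The exception was STEAP3, a ferric reductase (-0.34). Among 27 genes of heme and iron-sulfur synthesis 0 were called, 18 were below 0 and the median was -0.06, with HMOX1, which degrades heme, at -0.53 and FECH, which inserts iron into heme, at -0.18. HMOX1 had 8.72, 9.14, 8.54 and 8.22 on untreated and 8.14, 8.30, 8.09 and 7.96 on human ERFE arrays, where untreated array 4 overlapped the treated range (adjusted p = 0.533).

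The targets of TGF-beta and activin, ligands that act through SMAD2 and SMAD3, held 0 called genes of 12, with a median of -0.03. SMAD7 and CDKN1A (-0.81, adjusted p = 0.688) had the smallest p among them. CDKN1A, a cell cycle inhibitor also induced by p53, read 8.87, 10.24, 9.56 and 8.18 on untreated arrays and 8.74, 8.03, 8.81 and 8.03 with human ERFE, so that the groups overlapped.

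Among chemokines and cytokines CXCL1 and CXCL6 rose. Of 23 tested, 2 were called higher and 0 lower, and the median was 0.00. No overlap was found for 4 (17.4%, all higher, against 3.99% of all genes in either direction). CXCL1, which draws neutrophils through the receptor CXCR2, had 7.42, 7.45, 7.55 and 7.33 on untreated arrays and 8.37, 8.65, 8.65 and 8.63 on human ERFE arrays. Human ERFE array 1 was below the other treated arrays and still above every untreated one (1.14 ± 0.10, SE, adjusted p = 4.90e-04). CXCL6, a related chemokine, had 7.78, 7.51, 7.61 and 7.63 against 8.27, 8.33, 8.36 and 8.24 (0.67, adjusted p = 0.00543), and its second probe gave 0.42. CXCL2, a close relative of CXCL1, did not pass and was detected on 2 untreated and 3 treated arrays (0.47, adjusted p = 0.58). CX3CL1, a membrane-bound chemokine, had 0.41 (adjusted p = 0.45) with no overlap, and its untreated arrays read 8.91, 9.10, 8.58 and 8.997 against 9.12, 9.31, 9.35 and 9.45.

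NF-kB is the factor that inflammatory signals use to switch on such chemokine genes, and NFKBIZ encodes a nuclear co-regulator of it. NFKBIZ had 7.56, 7.81, 7.76 and 7.65 on untreated arrays and 8.35, 8.29, 8.46 and 8.16 with human ERFE, without overlap (0.62, adjusted p = 0.0247). It was the 1 call among 21 NF-kB subunits and regulators, whose median was 0.03. RELA, the main activating subunit, had 6.41, 6.38, 6.30 and 7.01 against 6.89, 7.01, 7.01 and 7.61, where untreated array 4 reached the treated range (0.60, adjusted p = 0.391). NFKBIA, the inhibitor that NF-kB itself induces, had -0.31 and RELB, a subunit of the alternative pathway, 0.25, neither past the threshold and both without overlap.

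The promoters of CXCL1, CXCL6 and NFKBIZ are printed because these called genes belong to the chemokine and NF-kB lists. They were picked among the called genes that rose, with their values known. Each window (RefSeq, GRCh38.p14, plus strand, 250 bases before to 50 after a start) held a match to a common form of the NF-kB site, GGG and TTTCC with any 2 bases between, searched on both strands and printed in capitals. The windows are chr4:73869143-73869442 for CXCL1, chr4:73836428-73836727 for CXCL6 and chr3:101827740-101828039 for 1 of 2 NFKBIZ starts:
CXCL1: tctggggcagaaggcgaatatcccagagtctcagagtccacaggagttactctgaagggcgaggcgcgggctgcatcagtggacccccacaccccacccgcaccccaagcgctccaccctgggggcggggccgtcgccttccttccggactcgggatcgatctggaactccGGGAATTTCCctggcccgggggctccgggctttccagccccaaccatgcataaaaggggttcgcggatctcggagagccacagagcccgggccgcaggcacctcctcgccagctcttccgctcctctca
CXCL6: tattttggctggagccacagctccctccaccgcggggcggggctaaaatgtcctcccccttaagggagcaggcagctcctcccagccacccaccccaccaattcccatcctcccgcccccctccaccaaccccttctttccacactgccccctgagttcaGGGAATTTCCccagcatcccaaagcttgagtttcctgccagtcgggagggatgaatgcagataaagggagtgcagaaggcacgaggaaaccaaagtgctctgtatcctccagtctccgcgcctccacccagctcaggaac
NFKBIZ: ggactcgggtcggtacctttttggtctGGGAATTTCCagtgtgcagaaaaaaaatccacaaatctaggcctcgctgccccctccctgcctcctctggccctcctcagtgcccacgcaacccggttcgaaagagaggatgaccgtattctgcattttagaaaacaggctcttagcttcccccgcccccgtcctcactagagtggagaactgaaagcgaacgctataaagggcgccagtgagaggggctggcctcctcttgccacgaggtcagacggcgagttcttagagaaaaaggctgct
The matches lie 79 to 70, 90 to 81 and 223 to 214 bases before the start. These letters stood in 1.91% of 35116 windows and in any window of 3.04% of 8816 tested genes. Of the called genes with a window, 3 of 9 that rose and 0 of 13 that fell held them. Those 3 are the genes printed here, picked with their values known, so their share is no independent evidence. Enrichment of the letters was not tested. A match describes the letters of a window and not a bound site.

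Other inflammatory genes were not called. Of 14 acute phase genes, which liver cells raise in inflammation, 0 were called and the median was 0.07, with SERPINA3, a protease inhibitor, at 0.35, CEBPD, an acute phase transcription factor, at 0.45 and SAA4 at -0.35. SERPINA3 and SAA4 had no overlap between groups. Among 17 TNF and death receptor genes 0 were called, and TNFRSF1A, the main TNF receptor, had 10.47, 10.65, 10.57 and 10.47 on untreated arrays and 9.96, 10.30, 10.05 and 10.11 with human ERFE (-0.44, adjusted p = 0.167, without overlap).

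Mouse ERFE cells share the untreated arrays with this comparison, so the values of both proteins are given side by side. Of the tests with mouse ERFE, only that of the direct difference is reported. Between human and mouse ERFE limma called 1 of 10891 genes (0.00918%), which was CXCL1. Against untreated cells CXCL1 had 1.14 with human and 0.22 with mouse ERFE, and their difference was 0.92 (95% interval 0.71 to 1.13, adjusted p = 0.00547). NFKBIZ had 0.62 and 0.05, and the difference of 0.57 (0.36 to 0.79) did not pass (adjusted p = 0.288). The intervals of CEBPD (0.57, from 0.30 to 0.85), CXCL2 (0.61, from 0.24 to 0.98) and CXCL6 (0.30, from 0.11 to 0.49) also left out 0 without the adjusted p passing. CXCL2 was detected on 0 of 4 mouse ERFE arrays. This was not particular to inflammatory genes. Intervals without 0 were also found for GPATCH1 (0.21, from 0.007 to 0.42), ZNF561 (-0.40, from -0.65 to -0.15) and LINC01018 (-0.46, from -0.74 to -0.17), among others. HAMP (-0.05, from -0.43 to 0.33), ID3 (-0.17, from -0.41 to 0.08) and SMAD6 (-0.11, from -0.34 to 0.12) had intervals that include 0, which does not show that the proteins act alike.

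**Figure D4:**
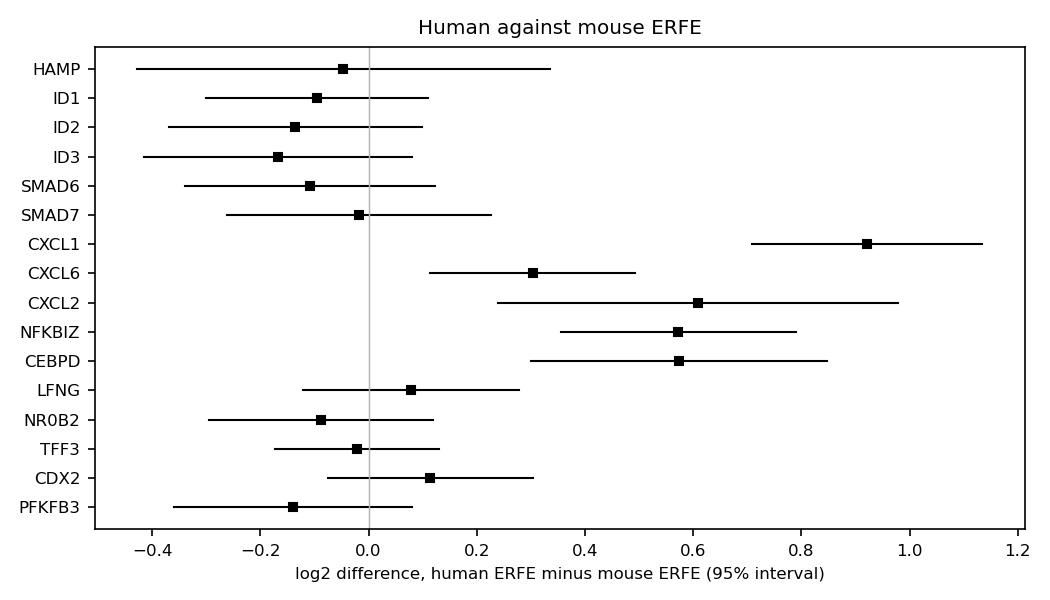
Log2 difference between human and mouse ERFE arrays (squares, 4 arrays each) with its unadjusted 95% interval for 16 genes of the BMP, inflammatory and other groups. CXCL1 stands farthest from 0 at 0.92, and the intervals of HAMP, the ID genes, SMAD6 and SMAD7 include 0.

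In Notch signalling 1 of 12 tested genes was called, 2 had no overlap and the median was 0.13. That median was 0.23 without untreated array 4 and -0.03 without the 6 arrays with high MHC class II transcripts. LFNG, a glycosyltransferase that tunes which ligands Notch responds to, had 8.82, 8.97, 8.85 and 8.93 on untreated arrays and 9.46, 9.52, 9.49 and 9.73 with human ERFE (0.66, adjusted p = 0.00948). Its groups were far apart at this probe, whereas other LFNG probes gave 0.50 and -0.05. NOTCH1, a receptor, had 6.19, 6.28, 6.24 and 6.29 against 6.50, 6.93, 6.71 and 7.23, all treated arrays above all untreated ones but spread more widely (0.59, adjusted p = 0.415). The protease gene ADAM10, which cuts the receptor, had 0.34, and -0.0069 without those 6 arrays. HEY1, a Notch target as well as a BMP target, had -0.15.

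Among 13 Wnt target genes TCIM was called (0.51, adjusted p = 0.0254), reading 9.08, 9.15, 9.12 and 9.29 on untreated arrays and 9.80, 9.70, 9.62 and 9.56 with human ERFE. RNF43, which removes Wnt receptors, had 7.03, 7.08, 6.97 and 6.92 against 6.31, 6.72, 6.51 and 6.48, the opposite direction without overlap (-0.49, adjusted p = 0.0711). MYC, a transcription factor of cell growth, had -0.35 without overlap. LGR4, a receptor for R-spondins, had 0.47, with untreated array 4 the highest of all 8 at 7.53, and turned to -0.16 without the 6 arrays with high MHC class II transcripts. The list median was 0.03, so the list had members on both sides. Of 10 YAP targets 0 were called, with ANKRD1 at -0.58, NT5E at 0.36 and DLC1 at -0.30. Of 13 genes that damp ERK signalling 0 were called and 9 were below 0 (median -0.09), with SPRY4 and SPRY2 both at -0.41 and DUSP1 at -0.20. A second SPRY4 probe gave -0.02. The 14 immediate early factors had 0 calls and a median of -0.02.

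The T-box and homeobox factors, which set tissue identity in development, held 2 calls among 17 tested, both lower, with a median of 0.03. TBX2, a repressor that BMP signalling is known to induce in several embryonic tissues, had 7.07, 7.13, 6.97 and 7.33 on untreated arrays and 5.43, 6.15, 6.09 and 6.04 with human ERFE (-1.20, adjusted p = 0.00365). Human ERFE array 1 was the lowest by far, and TBX2 was detected on 3 of 4 treated arrays. CDX2, the homeobox factor of intestinal epithelium, had 7.75, 7.92, 8.08 and 7.78 against 7.34, 7.28, 7.31 and 7.20 (-0.60, adjusted p = 0.0117), again without overlap. MEIS1, a homeobox cofactor, had 0.30.

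Of 18 tested genes of gut-type epithelium and tight junctions, 1 was called higher and 1 lower, and the median was -0.04. No overlap was found for 5 (27.8%, against 3.99% of all genes). This list too was written with earlier results known, so that share is no independent evidence. TFF3, a secreted trefoil peptide of mucous surfaces, had 10.56, 10.63, 10.70 and 10.56 on untreated arrays and 11.03, 11.07, 11.16 and 11.10 with human ERFE (0.48, adjusted p = 0.0117). TFF2, a related peptide, had 0.38 without overlap (adjusted p = 0.187). CDH17, a cadherin of intestinal epithelium, had 7.40, 7.51, 7.56 and 7.64 against 7.17, 7.07, 7.20 and 7.11 (-0.39, adjusted p = 0.137). The trefoil genes and the pair CDX2 and CDH17 thus lay on opposite sides.

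Among 25 integrins and adhesion genes 1 was called, 3 were higher and 2 lower without overlap, and the median was 0.05. CADM4, a cell adhesion molecule of the immunoglobulin family, had 5.50, 5.32, 5.24 and 5.47 on untreated arrays and 5.93, 5.91, 5.85 and 5.84 with human ERFE, near background, with detection on 2 of 4 untreated arrays (0.50, adjusted p = 0.0469). CDH6, a cadherin, had 7.21, 6.77, 6.82 and 6.62 against 7.50, 7.57, 7.41 and 7.39 and just missed the threshold (0.61, adjusted p = 0.0681). CDH1, the epithelial cadherin, had 0.39 (adjusted p = 0.457), with human ERFE array 3 the highest at 9.90. Of 30 extracellular matrix genes 0 were called and 20 were above 0, with a median of 0.09. ADAMTS9, a matrix protease, had 0.58 without overlap, while the laminin chain LAMA5 (0.79), the collagen COL18A1 (0.67) and the basement membrane protein NID1 (0.44) overlapped between groups. The list's mean level was lowest among treated arrays on human ERFE array 1. Of 6 tested stellate cell and fibroblast markers, which share collagen genes with the matrix, 6 were above 0, with PDGFRA at 0.46 and COL1A2 at 0.26. The mean level of the list ranged from 5.57 to 5.78 on untreated and from 5.80 to 6.13 on human ERFE arrays. Some members were near background: DCN was detected on 1 human ERFE and 1 untreated array, and PDGFRB on 3 and 0. The list median of 0.21 was 0.06 without background correction. Their part in the matrix values was not tested.

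In metabolism single genes were called rather than lists. PFKFB3, which makes fructose 2,6-bisphosphate and so drives glycolysis, had 9.86, 10.09, 10.06 and 9.99 on untreated arrays and 8.93, 9.20, 9.33 and 9.25 with human ERFE (-0.83, adjusted p = 0.00365). It was the 1 call among 26 glycolysis genes, whose median was 0.03, and the 1 call among 27 hypoxia targets, whose median was -0.04. HK1, a hexokinase, had -0.39 and DDIT4, a stress-induced inhibitor of mTOR and a hypoxia target, -0.25 without overlap. A second PFKFB3 probe gave -0.32. SLC29A3, a nucleoside transporter of lysosomes and mitochondria, had 9.16, 9.27, 9.23 and 9.14 against 8.33, 8.67, 8.44 and 8.58 (-0.69, adjusted p = 0.00365), the 1 call among 224 solute carriers, of which 6 were higher and 10 lower without overlap (7.14%).

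NR0B2, the nuclear receptor SHP that represses bile acid synthesis, had 7.74, 7.77, 7.54 and 7.56 on untreated arrays and 8.28, 8.30, 8.16 and 8.16 with human ERFE (0.57, adjusted p = 0.0277). Its call was lost whichever of the 8 arrays was left out, although the groups did not overlap. It was the 1 call among 17 hepatocyte transcription factors (median -0.01) and among 14 bile acid genes (median -0.10). SLC51B, part of the bile acid exporter of the basolateral membrane, had -0.38 without overlap, FGF19, the hormone that lowers bile acid synthesis, -0.29, and FGFR4, its receptor, -0.22. None of these 3 passed, and 10 of the 14 bile acid genes were below 0. ONECUT1, a liver transcription factor, had 0.37.

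Of the lists of secreted liver proteins, only the coagulation list had mean levels without overlap between groups, and none held a call. Of 25 coagulation and fibrinolysis genes 0 were called, 22 were above 0 (51.6% of all genes were) and the median was 0.11. Their mean level, set to 0 for the untreated arrays, was -0.02 to 0.02 on these and 0.09 to 0.18 on human ERFE arrays. F13B, a subunit of the clot-stabilizing factor XIII, had 7.03, 6.92, 7.20 and 7.11 against 7.57, 7.31, 7.41 and 7.41 without overlap (0.36, adjusted p = 0.227). PROZ, a cofactor in the inhibition of factor X, had 0.57, CPB2, which slows clot lysis, 0.39, and prothrombin (F2) 0.34, all with overlap. CPB2 turned to -0.15 without the 6 arrays with high MHC class II transcripts. The fibrinogen chains FGA, FGG and FGB had 0.18, 0.06 and -0.04.

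Among 25 other secreted liver proteins 20 were above 0 (median 0.09), among 17 complement genes 12 (median 0.06) and among 19 apolipoprotein genes 12 (median 0.03), with 0 calls in each. The mean levels of these 3 lists overlapped between groups: on human ERFE arrays they ranged from -0.04 to 0.20, -0.01 to 0.13 and -0.06 to 0.21, and on untreated arrays from -0.05 to 0.08, -0.04 to 0.05 and -0.04 to 0.06. IGFBP3, a carrier of insulin-like growth factors, had 0.35, ITIH1, a hyaluronan-binding plasma protein, 0.50 and the apolipoprotein APOC1 0.21. Of 32 cytochrome P450 and conjugation enzymes 0 were called and 3 were higher without overlap (9.38% of the list), which were UGT2B11 (0.43), GSTA1 (0.31) and GSTA4 (0.24), the last named after its value was seen. GSTA2 had 0.37 with overlap. UGT2B11, GSTA1 and GSTA2 have near-identical relatives that their probes may not separate, and other probes gave 0.09 for UGT2B11 and 0.05 and -0.15 for GSTA2.

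Of 24 targets of NRF2, the factor that answers oxidants, 20 were below 0, with 0 calls and a median of -0.06. Their mean level was -0.06 to 0.03 on untreated and -0.14 to -0.08 on human ERFE arrays. Without the 6 arrays with high MHC class II transcripts the median was -0.02. Mean levels also lacked overlap for the hypoxia targets (at most -0.053 with human ERFE, at least -0.047 without). The same held for the metallothioneins and zinc transporters (at least 0.047 with human ERFE, at most 0.039 without). No such gap was tested. AKR1B10, an aldo-keto reductase, had 8.02, 7.99, 7.68 and 7.95 on untreated arrays and 7.18, 7.66, 7.39 and 7.02 with human ERFE (-0.60, adjusted p = 0.37), without overlap by a narrow margin. AKR1C3 had -0.30 and SRXN1, which repairs peroxiredoxins, -0.21. Of 77 subunits of oxidative phosphorylation 60 were above 0, but the median was 0.03, 76 were within 0.25, and 0 were called. Of 26 genes of the unfolded protein response 20 were above 0 with a median of 0.05. The 25 targets of ATF4 had 0 calls, with NUPR1 at 0.38 and the arginine transporter SLC7A1 at -0.22.

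**Figure D5:**
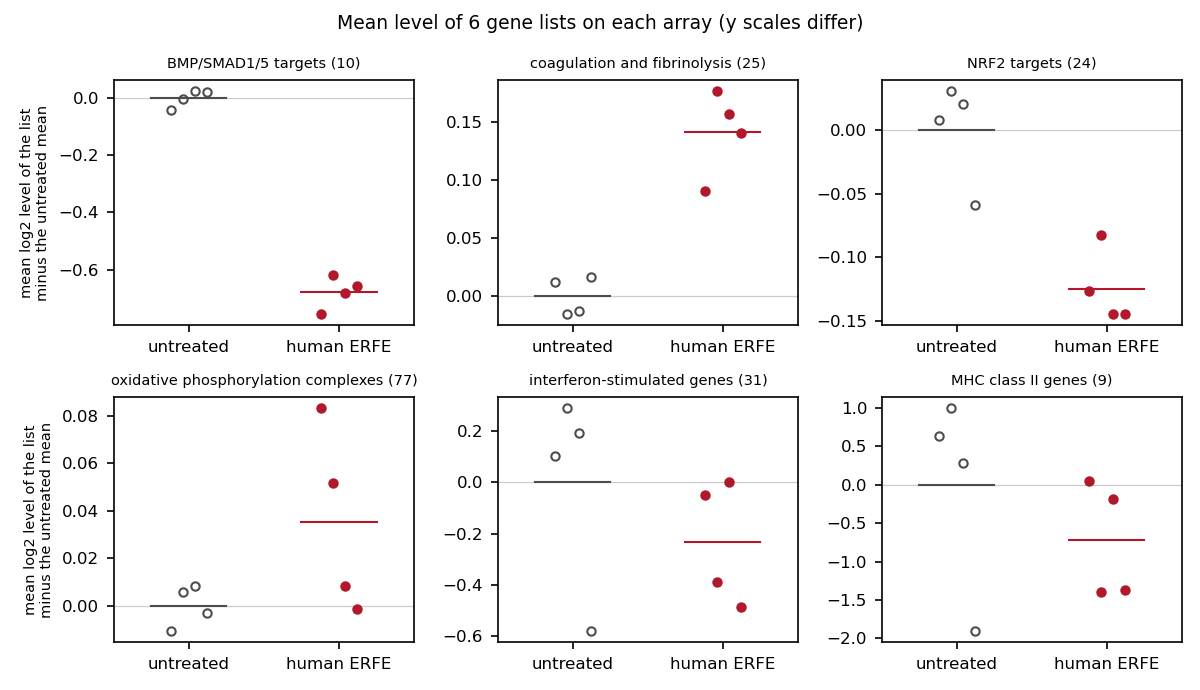
Mean log2 level of 6 gene lists on each untreated array (open circles) and each human ERFE array (filled circles), minus the mean of the untreated arrays, with group means as bars and y scales that differ between panels. The groups do not overlap for the BMP targets, coagulation genes and NRF2 targets, overlap for oxidative phosphorylation and interferon-stimulated genes, and for MHC class II genes follow the split between arrays described above.

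Among long noncoding RNAs 2 of 144 were called and 9 had no overlap (6.25%). UCA1 had 7.60, 7.64, 7.79 and 7.92 on untreated arrays and 6.49, 6.996, 6.46 and 6.55 with human ERFE (-1.11, adjusted p = 0.00638), with human ERFE array 2 the highest of the treated arrays. LINC01451 had 5.88, 6.09, 5.75 and 6.20 against 6.86, 6.51, 6.88 and 6.46 (0.70, adjusted p = 0.0469). LINC01018, which did not pass, had -0.52 without overlap. Of 164 small nucleolar and other small RNAs 0 were called, 1 was higher and 9 were lower without overlap (6.10%), and the median was -0.05. SNORA27, which guides pseudouridine formation, had 6.97, 6.95, 6.86 and 7.04 against 6.69, 6.42, 6.19 and 6.13 (-0.60, adjusted p = 0.146), while SNORD104 had -0.27 and SNORD4A -0.29.

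Other called genes belonged to none of the pathways above. TENT5C, a cytoplasmic poly(A) polymerase, had 8.26, 7.99, 8.003 and 7.85 on untreated arrays and 8.73, 8.57, 8.59 and 8.57 with human ERFE (0.59, adjusted p = 0.0444), the 1 call among 19 genes of poly(A) control. S100P, a calcium-binding protein, had 12.53, 12.63, 12.60 and 12.69 against 12.28, 12.04, 11.96 and 12.07 (-0.52, adjusted p = 0.0156). CLRN3, a membrane protein of the clarin family, had 10.00, 9.97, 10.02 and 10.05 against 9.61, 9.52, 9.50 and 9.54 (-0.47, adjusted p = 0.0269). CLRN3 varied little between arrays, with an SD of 0.03 in untreated and 0.05 in treated cells.

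MTURN fell by 0.64, NUP62CL by 0.64 and SH3TC1 by 0.51, with adjusted p-values of 0.0348, 0.0469 and 0.0489. The 4 treated arrays of SH3TC1 read 8.53, 8.47, 8.59 and 8.34, under untreated values of 9.06, 9.03, 9.10 and 8.78. FAM174B rose by 0.65 (adjusted p = 0.0469), from 6.73, 6.82, 7.16 and 7.08 to 7.71, 7.72, 7.46 and 7.51. GPATCH1, a splicing-associated G-patch protein, was detected on 3 of 4 treated and 0 of 4 untreated arrays, which gives only a bound of at least 1.04-fold higher (adjusted p = 0.0148) set by the dimmest detected probe on an array.

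None of 75 cytosolic and 76 mitochondrial ribosomal protein genes, 31 proteasome subunits, 48 translation factors, 75 splicing factors or 37 histone genes was called (limma, unadjusted p under 0.05 in 1, 0, 0, 1, 4 and 0 of them), and their medians lay between -0.02 and 0.05. Of the cytosolic ribosomal proteins 72 were within 0.25, with RPL14 at -0.34 (-0.10 at its second probe). The 42 genes of the G1/S phase and the 39 of mitosis also had 0 calls, with medians of -0.01 and 0.00. MCM3, a subunit of the replicative helicase, had 12.84, 12.87, 12.75 and 12.88 against 12.58, 12.63, 12.52 and 12.63, small and without overlap (-0.25, adjusted p = 0.325), and AURKB, a mitotic kinase, had -0.22. Of 298 zinc finger genes 0 were called, 25 had an unadjusted p under 0.05, and 7 were higher and 7 lower without overlap (4.70%), with ZNF670 at -0.67 (adjusted p = 0.0864). Of 34 genes of MYC and ribosome biogenesis 0 were called, 23 were below 0 and the median was -0.04.

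The interferon-stimulated genes had a median of -0.14 (-0.24 without untreated array 4), and 24 of 31 were below 0, yet 0 were called and 0 lacked overlap between groups. Their mean level was 0.10, 0.29, 0.19 and -0.58 on untreated arrays 1 to 4 and -0.05, -0.39, -0.00 and -0.48 on human ERFE arrays 1 to 4. Untreated array 4 and human ERFE arrays 2 and 4 were low in both lists. With a covariate for MHC class II the interferon median was -0.03, and without the 6 arrays with high MHC class II transcripts, an alternative chosen after seeing the data, it was 0.10. The 9 MHC class II genes had a median of -0.68 with 0 calls and 0 without overlap, and CD74, their invariant chain, read 9.33, 10.11, 9.16 and 4.88 on untreated and 8.68, 5.91, 8.30 and 5.76 on human ERFE arrays.

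Differences beyond 1 log2 unit were few and most were not called: 18 genes in all, 4 higher and 14 lower, of which CXCL1, HAMP, TBX2, UCA1 and ID3 passed. KRT18, a keratin of simple epithelium, had a difference of 1.86 and did not pass (adjusted p = 0.497). It read 5.82, 5.36, 5.02 and 8.62 on untreated arrays and 8.53, 7.24, 7.96 and 8.55 with human ERFE, so that untreated array 4 alone matched the treated arrays. Its second probe gave 0.54, and without the 6 arrays with high MHC class II transcripts its difference was -0.73. USP22 (1.29) and ALYREF (1.20) showed the same array pattern and, like the lower genes MX1, CD74, HLA-DPA1 and TYROBP, are named here after their values were seen.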

How the data were processed

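RNA of Huh7 cells in 3 groups was hybridised to 12 Illumina HT-12 v4 arrays. The authors deposited signal intensity and a detection p-value for each of 47323 probes, and lumi and limma are named, without versions, per the submitters' processing notes. A deposited table called normalized holds the same 567876 intensity values and was not used. Intensities were background-corrected (normexp, controls inferred from the detection p-values, offset 16), quantile-normalised and put on the log2 scale with limma 3.58.1's neqc in R 4.3.3, so that the log2 values are not the authors' but come from their deposited intensities. Probes of 1 named gene detected (p under 0.05) on at least 4 arrays were kept, the brightest probe stood for its gene, and 10891 genes were fitted over the 3 groups (lmFit, eBayes, Benjamini-Hochberg). Copies such as CXCL1 and CXCL2, GSTA1 and GSTA2, the UGT2B genes and the HLA genes may share probes. The groups share replicate numbers given in titles, but only 1 of 4 same-numbered pairs deviated together (correlations of -0.0962, -0.0549, 0.00111 and 0.312), so the numbers were not taken as pairs. Chromosomes and promoters come from RefSeq (GRCh38.p14). The text names called genes, all tested BMP targets and up to 4 members of a list with an unadjusted p under 0.05, and says where others were picked. The comparison, lists and tests were chosen with earlier results of these data known. Data were simulated for human ERFE against untreated cells on 15840 genes, with noise drawn independently for each probe. In them 40.2% of 1.5-fold and 62.0% of 2-fold changes were called. Alternatives covered background, offset, scaling, filter, probe choice, blocks, weights, a covariate and each array left out. The number of arrays limits the precision.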

Additional observations from a re-analysis of the deposited data

Results flagged for a closer look

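Within a group of 4 arrays, 20 single values of the named genes lay apart from the other 3 by more than Dixon's 95% critical value (gap over range). The 146 named genes gave 292 groups, and chance flags about 1 in 20 groups, or 14.6 here. No cause was tested.

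Among called genes, human ERFE array 1 was low for CXCL1 (8.37) and TBX2 (5.43) and high for TENT5C (8.73), and human ERFE array 2 was high for UCA1 (6.996). Each of these values still lay on the treated side of all 4 untreated arrays.

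In genes that were not called, human ERFE array 1 was also high for the bile acid exporter gene SLC51B (9.35), the calcium-binding S100A4 (8.61) and the complement regulator C4BPA (8.57), and low for ITIH1 (5.73). Human ERFE array 3 was low for TP53INP1 (10.02) and high for SPRY2 (8.94), and human ERFE array 4 was high for RELA (7.61).

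Among untreated arrays, array 4 was high for UGT2B11 (9.54), RELA (7.01) and LGR4 (7.53) and low for LINC01018 (9.45). Array 1 was high for PROZ (6.03) and low for SLC43A2 (7.92), array 2 was low for RRM2B (5.91) and SNORD104 (8.14), and array 3 was high for CDH1 (9.14).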

How the results depend on the processing

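All 27 called genes kept their direction under every alternative in which they were fitted. In fits that only left out arrays this was fixed in advance, because the groups of these genes did not overlap. Against 12 higher and 15 lower, the counts were 1 and 5 with median centring, 4 and 9 with only the 8 arrays, 4 and 9 with the replicate block, 2 and 3 with the title code number as a block, 4 and 11 with the title code letter as a block, and 6 and 11 with the MHC class II covariate. Leaving out 1 array at a time gave 3 to 37 higher and 8 to 15 lower. Without the 6 arrays with high MHC class II transcripts, chosen after seeing the data, limma called 0 and 0, with 416 genes at an unadjusted p under 0.05; this fit has fewer arrays. That fit also turned the sign of KRT18 (-0.73), FADS2 (-0.33), ATG4B (-0.48), LGR4 (-0.16), CPB2 (-0.15), HNRNPH1 (-0.045), HMMR (-0.030), HNRNPA3 (-0.023), MAP4K4 (-0.014), ADAM10 (-0.0069) and GREM1 (0.068). GREM1 also turned with the title code number as a block (0.035), and EIF5A2 with the mean of a gene's probes (0.0011). For these, the cause was not tested. Of the list medians under alternatives, 203 moved by more than the spread of untreated arrays and 1645 did not. The BMP target median ranged from -0.72 to -0.39, the Notch median from -0.03 to 0.23 and the interferon median from -0.25 to 0.10. Near-background signals (HAMP, TBX2, CADM4, GPATCH1) depend on the background step.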

Other observations

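A few genes passed from detected on all 4 arrays of one group to detected on none of the other, and they are named here after their values were seen. EEFSEC, the elongation factor for selenocysteine, was at least 1.27-fold higher with human ERFE, ZNF664 at least 1.25-fold and TMEM220 at least 1.17-fold. PATE2 was at least 1.40-fold and RAP2B, a small GTPase, at least 1.18-fold lower. None of them passed the threshold of limma's adjusted p.

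Other genes lay just above that threshold. WLS, which carries Wnt proteins to the cell surface, had a log2 difference of 0.45, SNAP25, a vesicle fusion protein, 0.46, the kinase NUAK1 0.45 and TRIM71, a ubiquitin ligase of early development, -0.49. These were also chosen after their values were seen.

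Of 4494 detected probes without a gene name, limma called 0, with 244 at an unadjusted p under 0.05, and 151 had no overlap between groups (3.36%).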
